A study of Mus musculus with 4 samples.

Results

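The 6 genes described here, Adamts1, Adamts2, Adamts4, Adamts5, Adamts12 and Adamts15, encode secreted matrix proteases of the ADAMTS family. They were chosen by gene symbol, and every non-control probe that carried one of these symbols was taken, which gave 13 probes of the 41174 probes on the array. Of these 13 probes, 11 lay above background and were tested, among 27017 probes tested in all. Adamts2 has 4 probes, Adamts12 has 3, Adamts1 and Adamts5 have 2 each, and Adamts4 and Adamts15 have 1 each.

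The ADAMTS proteins are zinc metalloproteases with thrombospondin repeats that bind the extracellular matrix. They are made as inactive precursors, are activated by furin-like convertases, and are held in check by the inhibitor Timp3. Adamts1, Adamts4, Adamts5 and Adamts15 cut the large hyaluronan-binding proteoglycans aggrecan and versican, Adamts2 removes the amino-terminal propeptide of fibrillar procollagens, and human ADAMTS12 can degrade cartilage oligomeric matrix protein. In developing muscle, the versican-rich coat around myoblasts is remodelled as the cells fuse into myotubes.

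The cells were C2C12, a mouse myoblast line whose cells stop dividing and fuse into myotubes in low serum. They were grown in DMEM with 10% FBS to 80% confluence and then differentiated over 6 days in horse serum, given as 2% in the growth protocol but as 10% in the source names. Treated cells received 200 ng/ml of recombinant human Follistatin 288, a secreted protein that binds activins and myostatin, every 24 h, while control cells were left untreated over the same 6 days. Each of the 4 samples was a biological replicate per the labels, hybridised on 1 two-colour Agilent array of the mouse transcriptome, on which Cy3 labelled the RNA of treated cells and Cy5 that of the controls. A ratio is the log2 of the processed Cy3 signal over the processed Cy5 signal, so a positive ratio means more signal with follistatin. All 4 arrays had the same dye orientation, so a dye effect particular to a probe cannot be told apart from an effect of follistatin.

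Of the non-control spots, 61.1 to 65.2% of those read for follistatin-treated RNA and 61.4 to 69.4% of those read for untreated RNA were well above background, and no spot was saturated. The number of arrays, 4, limits the precision. Replicates 2 and 3 resembled each other (r = 0.82 across tested probes) far more than any other pair of arrays did (r = 0.038 to 0.32). The labels call them biological replicates, so both were kept. No tested probe had identical ratios on them, which cannot show whether they came from separate cultures. The counts of calls, the ADAMTS ratios and the list medians were therefore also computed with the pair averaged into 1 replicate. Replicates 1 to 3 shared a slide, and replicate 4 was on a second slide. The 10 skeletal muscle markers were all detected, but their median ratio was 0.75 on replicate 1 and -0.39, -0.49 and -0.48 on replicates 2 to 4.

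Selected probes are shown by their first 30 bases, 5′ to 3′ and in lower case, for genes whose results rest on a single probe or on probes that differ. The letters come from the deposited array files, as do the positions on the mm9 mouse build.
Adamts15 A_51_P311038: gagtatcttcattgggttatggaccagtaa
Adamts1 A_52_P489295: gaaagagctcctgatttcttcttacaccat
Adamts1 A_52_P213932: ttctggctattagagccgctgatggtacct
Adamts2 A_51_P227222: caaagaatccaggagctcattaatgcagtg
Adamts2 A_52_P510592: tgtgtaactgcaaattaaccctctcacgac
Adamts2 A_52_P184042: gggcttcactattccatgaacgagcagtgt
Adamts12 A_52_P150851: atttcagaccctaacttcccatctggttag

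Across the 6 genes, Adamts15 had about 1.99 times the signal with follistatin, on all 4 arrays, Adamts2 had a smaller excess on its brightest 2 probes, and the other genes varied between arrays or between their own probes. None of the 11 tested probes passed limma's test at an adjusted p of 0.05, with 0 higher and 0 lower, where 0% of all tested probes were called higher and 0.00740% lower (2 probes, of Ces3b and Olfr1299). At an unadjusted p under 0.05, 3 of the 11 were higher and 0 lower, against 9.93% higher and 10.8% lower among all tested probes. Mean ratios were positive for 9 probes and negative for 2, against 51.3% positive among all tested probes. The ratio was positive on 4 of 4 arrays for 4 probes, where 13.7% of all tested probes were, and negative on 4 of 4 for 0, where 14.5% were; every follistatin signal exceeded every untreated signal for 3 probes, where 6.69% of all did; 0 lay wholly below, where 6.76% of all did. A mean over 1.6-fold higher was seen for 3 probes, Adamts12 A_52_P150851, Adamts15 and Adamts2 A_52_P184042, and for 6.48% of all. By array, 8, 8, 10 and 6 of the 11 had a positive ratio on replicates 1 to 4. The probes of a gene are not independent of each other, so these counts are descriptions. In such bulk RNA, fewer cells of a type and less RNA per cell cannot be told apart.

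**Figure D1:**
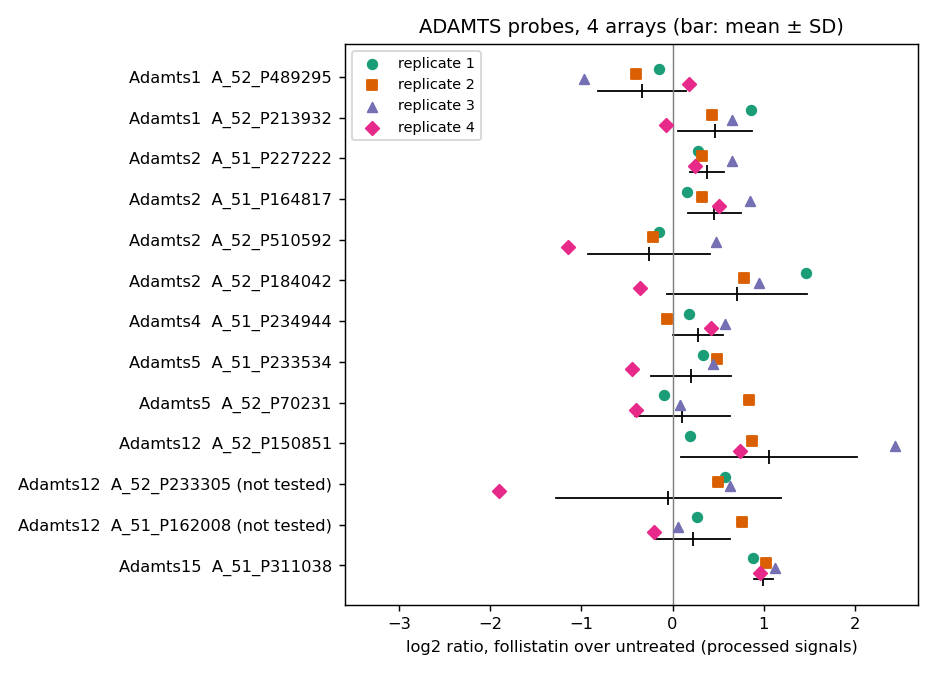
Log2 ratio of follistatin over untreated (horizontal axis, processed signals) for the 13 ADAMTS probes (rows); each symbol is 1 array, and the bar below the symbols is the mean with its SD over 4 arrays. The 4 symbols of Adamts15 lie between 0.88 and 1.12, whereas those of Adamts12 probe A_52_P150851 run from 0.19 to 2.44.

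Among the proteoglycan-cleaving members, Adamts15 had the highest and most even ratios. Its probe (chromosome 9, 30707033 to 30707092, minus strand, from base 5575 of transcript NM_001024139) had processed signals of 859, 904, 1003 and 1207 in follistatin-treated cells on replicates 1 to 4, against 467, 444, 461 and 622 in untreated cells. The groups did not overlap: the lowest follistatin signal, 859, exceeded the highest untreated signal, 622. The log2 ratios were 0.88, 1.03, 1.12 and 0.96, with a mean of 1.00 ± 0.10 (SD, n = 4), or 1.99-fold, and a 95% interval of 0.61 to 1.39. The SD of 0.10 compares with a median SD of 0.43 over all tested probes. limma ranked this probe 146 of 27017 by p, with an adjusted p of 0.102, so it was not called. By mean ratio 1.68% of tested probes stood higher. With array quality weights, which gave replicates 2 and 3 weights of 2.16 and 1.95 and replicates 1 and 4 weights of 0.51 and 0.46, its adjusted p was 0.0186. That fit called 3304 probes higher and 3465 lower, 3 of the higher ones ADAMTS probes, and it gave most weight to the 2 arrays that resemble each other. With that pair averaged into 1 replicate, the mean ratio of Adamts15 was 0.97 and its limma adjusted p was 0.279. The 95% interval above counts all 4 arrays as separate replicates.

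Adamts5, another proteoglycan-cleaving member, had a bright probe and a dim one. The bright probe (A_51_P233534, chromosome 16, 85862677 to 85862736, minus strand) had signals of 17075, 17257, 17127 and 15600 with follistatin, against 13555, 12293, 12597 and 21257 untreated. On replicates 1 to 3 follistatin was above untreated, on replicate 4 it was below, and the groups overlapped. The ratios of 0.33, 0.49, 0.44 and -0.45 averaged 0.20 ± 0.44 (SD, n = 4; limma adjusted p = 0.609). The mean was 0.42 without replicate 4, 0.11 without replicate 2, 0.13 without replicate 3 and 0.12 with replicates 2 and 3 averaged. The dim probe (A_52_P70231, 85859201 to 85859260), 3476 bases further along the same transcript, had ratios of -0.095, 0.83, 0.086 and -0.40, with a mean of 0.11 ± 0.52 (SD, n = 4; adjusted p = 0.815). Its mean ratio turned to -0.14 without replicate 2, so the direction of the dim probe rested on that array.

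Adamts4, an aggrecanase with 1 probe here (A_51_P234944, chromosome 1, 173189671 to 173189730, plus strand), had signals of 1834, 1759, 3045 and 2431 in treated cells, against 1616, 1838, 2048 and 1809 in untreated cells. Replicate 2 was slightly lower with follistatin and the other arrays were higher, with overlap between the groups. The mean ratio was 0.28 ± 0.28 (SD, n = 4; limma adjusted p = 0.413), and 0.18 without replicate 3.

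The pair of Adamts1 probes gave opposite mean ratios. The bright probe (A_52_P489295, chromosome 16, 85795044 to 85795103, minus strand) had signals of 15392, 14934, 9489 and 21265 with follistatin, against 17121, 19778, 18581 and 18799 untreated. Follistatin was the lower channel on replicates 1 to 3 and the higher one on replicate 4, and the mean ratio was -0.34 ± 0.48 (SD, n = 4; limma adjusted p = 0.422). It was -0.13 without replicate 3, -0.51 without replicate 4 and -0.22 with replicates 2 and 3 averaged. The dimmer probe (A_52_P213932, 85796191 to 85796250) had signals of 828, 775, 869 and 818 with follistatin, against 455, 576, 553 and 862 untreated. There follistatin was the higher channel on replicates 1 to 3 and the lower on replicate 4, and the mean ratio was 0.47 ± 0.40 (SD, n = 4; adjusted p = 0.264). The 2 probes lie 1147 bases apart both on the genome and on transcript NM_009621, the dimmer one nearer the transcript's start. The dimmer probe's ratio minus the bright probe's was 1.02, 0.83, 1.62 and -0.25 on replicates 1 to 4, with a mean of 0.80 ± 0.78 (SD, n = 4). An exact two-sided sign-flip test gave p = 0.25, and 0.625 after adjustment over the 5 probe comparisons computed, where 4 arrays cannot give less than 0.125. Thus no single direction can be stated for Adamts1.

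**Figure D2:**
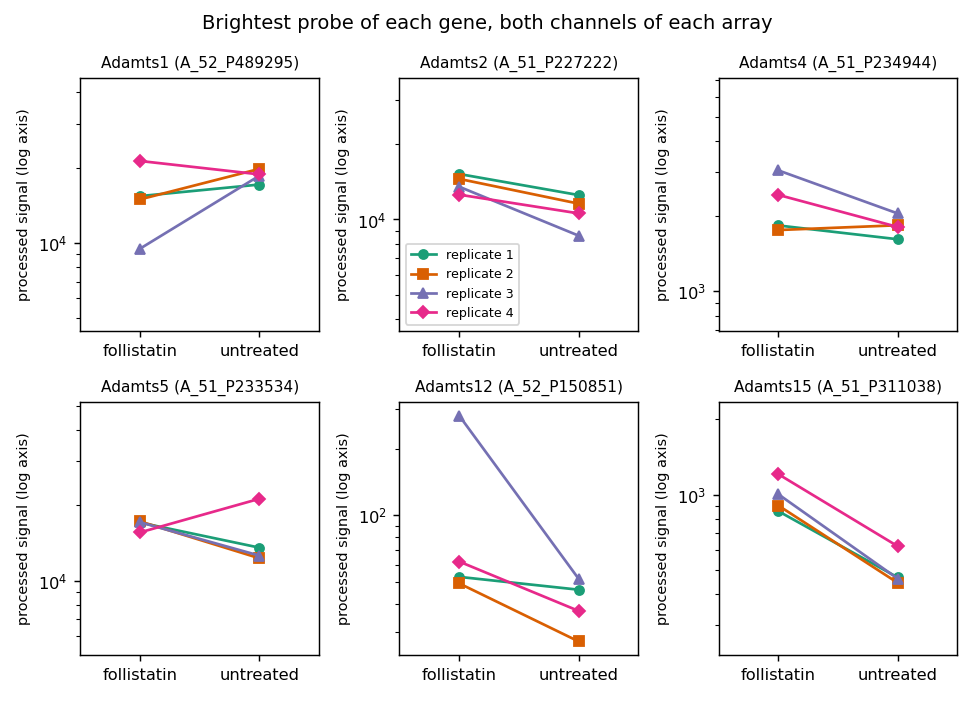
Processed signal of the brightest probe of each gene in the follistatin channel (left) and the untreated channel (right), each line 1 array. Each panel has its own logarithmic axis, so levels may be compared within a panel but not between panels. All 4 lines run downward to untreated for Adamts2, Adamts12 and Adamts15, and at least 1 line runs upward for Adamts1, Adamts4 and Adamts5.

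Adamts2, the procollagen amino-propeptidase, was read by 4 probes. The brightest (A_51_P227222, chromosome 11, 50617472 to 50617531, plus strand, from base 3661 of transcript NM_175643) had signals of 15199, 14529, 13519 and 12568 with follistatin, against 12522, 11570, 8619 and 10578 untreated. Each follistatin signal exceeded each untreated one, by a small margin at the edge, where 12568 faced 12522. The ratios of 0.28, 0.33, 0.65 and 0.25 averaged 0.38 ± 0.18 (SD, n = 4), or 1.30-fold, with a limma adjusted p of 0.268. The second probe (A_51_P164817, 50620833 to 50620892) had signals of 859, 1002, 1382 and 851 with follistatin, against 769, 802, 767 and 597 untreated. Again the channels did not overlap, and the mean ratio was 0.46 ± 0.30 (SD, n = 4; adjusted p = 0.233).

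The 2 faint Adamts2 probes were less steady. Probe A_52_P184042 (50590188 to 50590247, from base 1528 of the same RefSeq transcript) had ratios of 1.47, 0.78, 0.95 and -0.35, a mean of 0.71 ± 0.77 (SD, n = 4; limma adjusted p = 0.247). The mean was 0.46 without replicate 1, and it was 0.30 when the background was modelled by normexp and the ratios smoothed by loess. Probe A_52_P510592 (50611478 to 50611537, assigned to transcript ENSMUST00000142118) had ratios of -0.15, -0.22, 0.47 and -1.15, a mean of -0.26 ± 0.67 (SD, n = 4; adjusted p = 0.608), and its mean was 0.036 without replicate 4. Its ratio was below that of the brightest probe on all 4 arrays, by 0.64 on average; the exact sign-flip p was 0.125, the smallest that 4 arrays allow, and 0.625 after adjustment. The other 2 probes differed from the brightest by 0.084 and 0.33 on average, less than the spread of their differences (SD 0.18 and 0.73).

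One Adamts12 probe had the highest mean ratio and the widest spread of the 11 tested ADAMTS probes. Probe A_52_P150851 (chromosome 15, 11278486 to 11278545, plus strand, assigned in the file to the cDNA clone sequence AK028812) had signals of 52.9, 49.4, 282 and 62.0 with follistatin, against 46.3, 27.1, 51.8 and 37.2 untreated. Follistatin was higher on each array, but replicate 3 stood far above the rest and the groups overlapped. The ratios of 0.19, 0.87, 2.44 and 0.74 averaged 1.06 ± 0.97 (SD, n = 4; limma adjusted p = 0.182). The mean was 0.60 without replicate 3, and it was 0.35 after normexp and loess, where the ratio of replicate 3 was 1.01. Neither of the other probes, both assigned to RefSeq transcript NM_175501, could be tested. Probe A_52_P233305 was well above background on 1 follistatin and 2 untreated arrays, and A_51_P162008 did not rise well above background on any array with either RNA. The values for Adamts12 therefore rest on 1 of its 3 probes.

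**Figure D3:**
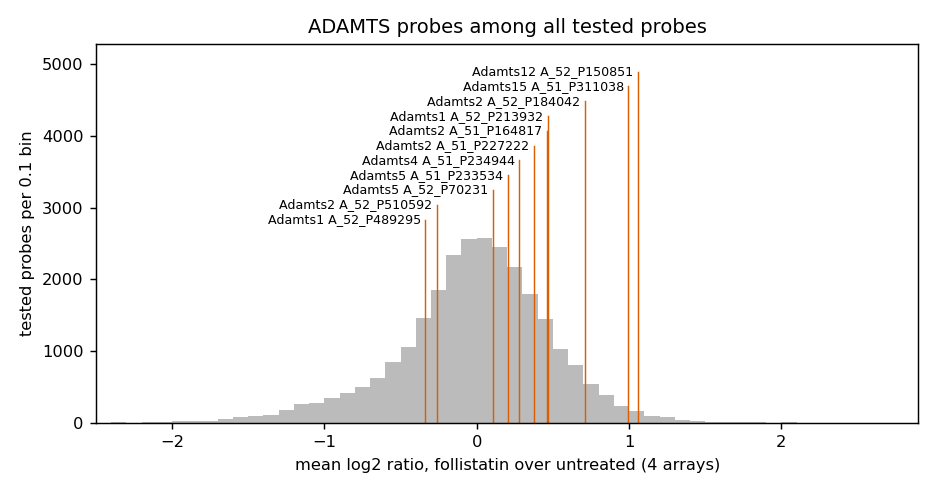
Number of tested probes (vertical axis) by mean log2 ratio of follistatin over untreated in bins of 0.1 (horizontal axis, 27017 probes, mean of 4 arrays). Vertical lines mark the 11 tested ADAMTS probes, from -0.34 for the bright Adamts1 probe to 1.06 for Adamts12.

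Among the tested probes, normexp and loess changed the mean ratio most for Adamts12 A_52_P150851 (1.06 to 0.35) and Adamts2 A_52_P184042 (0.71 to 0.30). Both are faint, and the offset of 50 that normexp adds to each channel by itself shrinks the ratios of faint probes. The faint Adamts2 probe A_52_P510592 moved less, from -0.26 to -0.17. With normexp and loess in place of the processed signals, Adamts15 kept ratios of 0.70, 0.74, 0.81 and 0.79 (mean 0.76 ± 0.052, SD, n = 4; limma adjusted p = 0.0991). All 4 arrays again agreed within a narrow range, at a somewhat smaller size. The brightest Adamts2 probe had nearly the same mean, 0.38, under both kinds of processing.

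**Figure D4:**
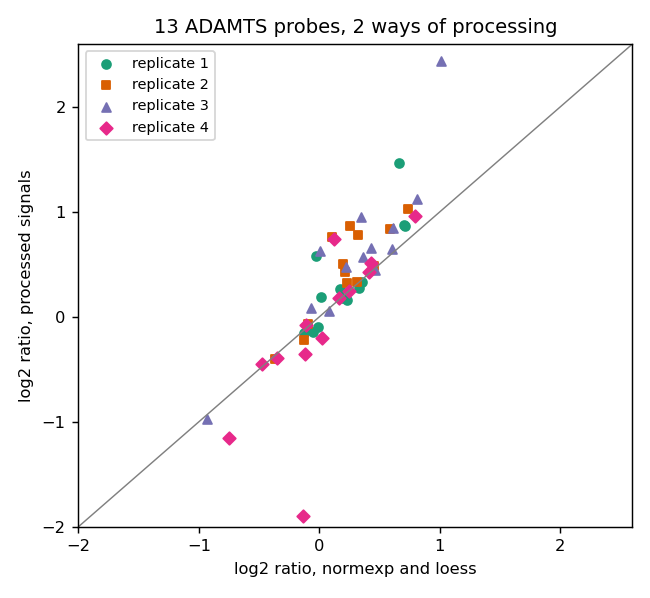
Log2 ratio of follistatin over untreated from processed signals (vertical axis) against the same ratio after normexp and loess (horizontal axis), each symbol 1 probe on 1 array; the line marks equal values. The largest departures are Adamts12 probes, at 2.44 against 1.01 on replicate 3 and at -1.90 against -0.13 on replicate 4.

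The remaining ADAMTS genes were mostly faint. Of 13 such genes, 12 have a probe on the array and 7 were tested; Adamts3, Adamts9, Adamts13, Adamts19 and Adamts20 were not, and Adamts17 had no probe. Limma called 0 of the 7 genes; at an unadjusted p under 0.05, 1 was higher and 0 lower, against 9.14% higher among the 14989 tested genes with a symbol. Their median ratio was 0.12, against 0.016 over all genes. The values ran from -0.47 for Adamts10, a protease associated with fibrillin microfibrils, to 0.91 for Adamts6 (ratios 0.25, 0.93, 1.61 and 0.84; adjusted p = 0.136). Between them lay Adamts7 at 0.30, Adamts8 at 0.27, Adamts14, another procollagen propeptidase, at 0.12, Adamts16 at 0.05 and Adamts18 at -0.34. These values are of the brightest probe, and a second tested probe averaged -0.042 for Adamts7 and 0.62 for Adamts8. Adamts8 is the neighbour of Adamts15 on chromosome 9, with 0 protein-coding genes between them in GRCm38.p6. The ratios of its brightest probe, -0.35, 0.28, 0.21 and 0.92, spread far more widely than those of Adamts15. Adamts1 and Adamts5 are likewise neighbours on chromosome 16.

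The ADAMTS-like proteins share the ancillary domains of the family but lack the protease domain. Of 7 such genes, papilin included, 6 were tested. At the brightest probe 5 had a positive and 1 a negative mean ratio, where 51.8% of all genes were positive, with a median of 0.40. Adamtsl1 averaged 0.37 at its brightest probe but -0.49 at its other tested probe. Limma called 0, and 1 was higher at an unadjusted p under 0.05, where 9.14% of all genes were. They ran from -0.13 for Adamtsl2 to 0.62 for Adamtsl3, whose ratios were -0.13, 1.32, 1.40 and -0.12, high only on the 2 arrays that resemble each other.

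The lists of substrates and their partners gave no call either. The first held 14 genes of the hyaluronan-binding proteoglycan matrix, both aggrecanase substrates and partners such as hyaluronan synthases. Of these, 9 were tested, 7 positive and 2 negative at the brightest probe against 51.8% positive over all genes, with a median ratio of 0.30. Limma called 0, and 1 was higher at an unadjusted p under 0.05, against 9.14% of all genes. They ran from -0.22 for Acan, which encodes aggrecan, to 1.05 for Bgn, which encodes biglycan. The Bgn ratios were 2.72, 0.58, 0.58 and 0.30, and a second Bgn probe averaged -0.88. For Vcan, which encodes versican, the brightest probe averaged 0.34, while its 3 tested probes ran from -1.18 to 0.34. The hyaluronan synthase gene Has2 averaged 0.30 at its brightest probe but -1.24 at its other tested probe. Among 10 genes of procollagens and their propeptide processing, 8 were tested and at the brightest probe all 8 had a positive mean ratio, with a median of 0.41, where 51.8% of all genes were positive. Limma called 0 of these 8, with 4 higher and 0 lower at an unadjusted p under 0.05, where 9.14% of all genes were higher. Of those 4 genes, Col1a2, Col2a1 and Col3a1, which encode fibrillar procollagen chains, averaged 0.72, 0.54 and 0.48 at the brightest probe, but each had another tested probe with a negative mean, at -0.40, -0.20 and -0.60 in the same order. They ran from 0.10 for Col5a1 to 0.73 for Bmp1, the carboxy-propeptidase of procollagens (ratios 1.35, 0.030, 0.65 and 0.88; adjusted p = 0.178).

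Of 17 genes that activate, assist, inhibit or clear ADAMTS proteases, 14 were tested. At the brightest probe 9 were positive and 5 negative, against 51.8% positive over all genes, with a median of 0.19. Limma called 0, and 1 was higher at an unadjusted p under 0.05, or 7.14% of the list, near the 9.14% of all genes. They ran from -0.26 for Pofut2, which adds fucose to thrombospondin repeats, to 0.63 for Lrp1, an endocytic receptor that clears several of these proteases. Each of these 2 genes has a second probe of the opposite sign, at 0.77 for Pofut2 and -1.08 for Lrp1. So has Sdc4, at 0.25 for its brightest probe and -0.41 for the other. Timp3, the tissue inhibitor of this family, averaged 0.40 and the convertase Furin -0.14. The median ratio of a list moved by array: that of the other ADAMTS genes was -0.35, -0.073, 0.035 and 0.84 on replicates 1 to 4.

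**Figure D5:**
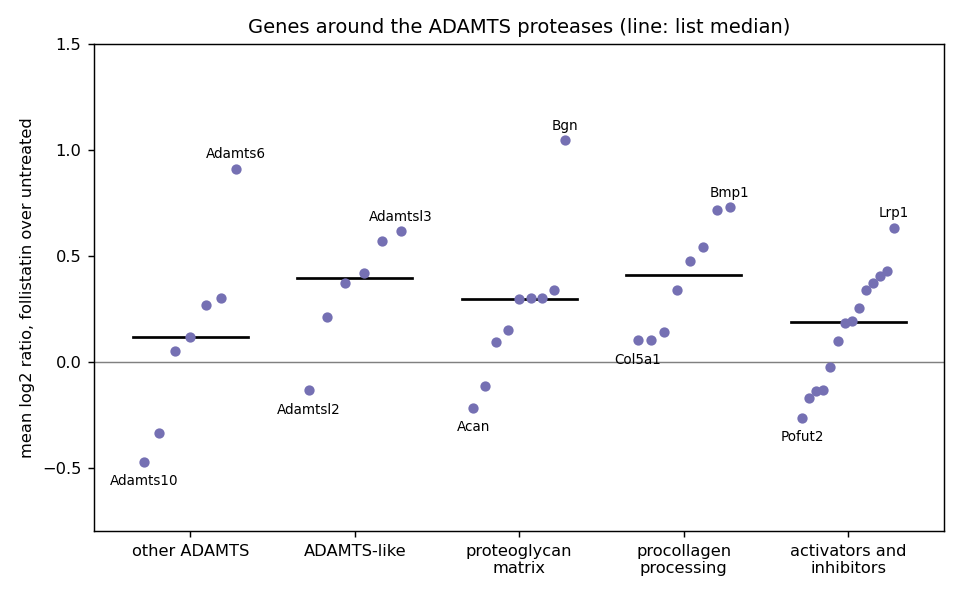
Mean log2 ratio of follistatin over untreated (vertical axis, 4 arrays, brightest probe of each gene) for the tested genes of 5 lists; each point is 1 gene, the horizontal line is the list's median, and the lowest and highest genes are named. The medians run from 0.12 for the other ADAMTS genes to 0.41 for procollagen processing.

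Marker genes of muscle and of other cell types were read on the same arrays. Of 7 fibroblast markers 5 were tested, and all 5 had a positive mean ratio at the brightest probe, where 51.8% of all genes were positive. Col1a1 and Col1a2 are also among the procollagen genes above. The array medians were 0.68, 0.19, -0.18 and 1.20. The summed processed signal of the 5 ranged over 186642 to 302942 with follistatin, against 138688 to 190695 untreated. Its largest terms were Dcn, with a mean signal of 129694 with follistatin against 96481 untreated, and Col1a2, with 91505 against 55138. Thy1 and Tcf21 were not above background. Other tested probes of Dcn and Col1a2 averaged -0.26 and -0.40. Of the 10 muscle markers, 4 had a positive and 6 a negative mean ratio, with a median of -0.17. The summed signal of the 10 muscle markers ranged over 700726 to 1124960 with follistatin, against 1186600 to 1447950 untreated, and its largest term was Tnnc2, with a mean signal of 372967 with follistatin, against 683545 untreated. None of 4 endothelial markers was above background on any array. Of 3 blood and macrophage markers on the array, Ptprc was not above background, while Cd68 averaged 0.26 and Lyz2 0.40. Of 4 epithelial markers Epcam was not above background, and Cdh1, Krt8 and Krt18 averaged 0.085, -0.067 and -0.25 at the brightest probe. A second tested Krt8 probe averaged 0.78. Of 4 adipocyte markers 1 was tested, Cidec, at -0.011. Of 4 chondrocyte markers 3 were tested, with Sox9 at -0.78, Acan at -0.22 and Col2a1 at 0.54. The 3 tested probes of Sox9 ran from -0.78 to 0.0017. All 4 neural markers were tested, with a median of -0.23. The part of these markers in the ADAMTS ratios was not tested.

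Genes whose 4 ratios lay nearest to those of each member's brightest probe were found by the root mean square difference over the 4 arrays, which share their hybridisations. Nearest to Adamts15 were Slit2, an axon guidance ligand (0.073; ratios 0.86, 1.08, 1.24 and 0.89), C1s1, a complement protease (0.075), and Cphx1 (0.11). Nearest to Adamts2 were Nek6 (0.061), Particl (0.070) and Erlec1 (0.072). The nearest genes were Fam193a, B3galt4 and Ephb2 for Adamts1 (0.079 to 0.085), Man2c1, Otud5 and Trim3 for Adamts4 (0.048 to 0.064), and Shq1, Wiz and Egln1 for Adamts5 (0.043 to 0.062). For Adamts12 they were Dnmt3b, Fnbp4 and 9530020O07Rik, at larger distances of 0.13 to 0.21. With 14989 genes and only 4 arrays, such small distances describe the values and nothing further.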

How the data were processed

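Spot intensity values were deposited by the authors as Agilent Feature Extraction output (per the submitters' processing notes, version 10.7.3.1; per the file headers, 10.10.1.1 for replicate 4). Processed signals had been background-subtracted and dye-normalized by that software. The authors' deposited log2 table matched log2 of processed Cy3 over Cy5 (slope 1), and the deposited log10 ratio runs the other way, Cy5 over Cy3. Here, control and outlier-flagged spots (85 to 142 per array) were left out and spots of a probe were averaged. Probes detected well above background with the same dye on 3 or more of the 4 arrays were fitted with limma 3.58.1 (lmFit, eBayes; R 4.3.3, data.table version 1.17.8), with Benjamini-Hochberg adjustment over all 27017 probes and a threshold of 0.05. A gene in a list is represented by its brightest tested probe; names came from the array files, updated through RefSeq. The fit was also run on simulated data with 4 independent arrays, which cannot show how it behaves when arrays resemble each other. Alternatives were normexp (offset 50) with loess (span 0.3, 4 iterations), median centring, 1 probe per gene, other filters, array weights, slide as a block (statmod 1.5.0), left-out replicates, separate channels and the methods' t-test (1.6-fold). The text names all members and probes, the other ADAMTS genes, the lowest and highest gene of each list and 3 nearest patterns per member. Vcan, Has2, Adamtsl1, Sdc4, Timp3, Furin, Col1a2, Col2a1, Col3a1, single cell type markers and the 2 probes called lower were added after their values were seen. Members and lists were chosen with earlier results of these data known.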

Additional observations from a re-analysis of the deposited data

Results flagged for a closer look

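Among 39 sets of 4 values (13 probes, each with its ratio and the log2 signal of either channel), 7 held a value farther from the other 3 than Dixon's 95% critical value for 4 values allows. Chance gives about 1 in 20, and the sets of a probe share their values. On replicate 4, the only array on the second slide, Adamts15 had an untreated log2 signal of 9.28, above the other 3, and follistatin was higher there too. Also on replicate 4, Adamts5 probe A_51_P233534 had a ratio of -0.45 and a follistatin log2 signal of 13.93, both below the others, and Adamts5 probe A_52_P70231 had an untreated log2 signal of 9.61, above them. Adamts2 probe A_51_P164817 had an untreated log2 signal of 9.22 on that array, below the others, and the untested Adamts12 probe A_52_P233305 a ratio of -1.90. On replicate 3, Adamts12 probe A_52_P150851 had a follistatin log2 signal of 8.14. Thus 6 of the 7 values were on replicate 4, which differed from the other arrays in both slide and software version. Signals were not scaled between arrays.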

How the results depend on the processing

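At an adjusted p of 0.05, no ADAMTS probe was called in the fit as reported or under any tested alternative other than array weights, which called Adamts15 (1.04; adjusted p = 0.0186), Adamts12 probe A_52_P150851 (1.39; 0.0345) and Adamts2 probe A_52_P184042 (0.81; 0.0353), 3 in all, with 3304 probes higher and 3465 lower over the array. Over 14 settings with a test or value, Adamts15 ranged over 0.76 to 1.04, with adjusted p from 0.0186 to 0.391. The count of 2 probes called lower became 0 with normexp and loess, with the stricter filter and with replicates 2 and 3 averaged, and was 0 to 0 with each replicate left out. Separate channels without the replicate block, which ignores that 2 channels share an array, called 1 higher and 5 lower; this unpaired fit called 0 ADAMTS probes, as did the paired one. The methods' t-test, run here unpaired between the 2 channels, likewise ignores that they share an array. It called 2 higher and 1 lower after Benjamini-Hochberg, 1 and 1 with the 1.6-fold minimum. At an unadjusted p under 0.05 with that minimum it called 1020 higher and 1403 lower, 1 of them an ADAMTS probe, Adamts15. Directions turned for Adamts5 probe A_52_P70231 (-0.14 to 0.28 with a replicate left out, lowest without replicate 2, and -0.010 with replicates 2 and 3 averaged) and Adamts2 probe A_52_P510592 (-0.51 to 0.036, highest without replicate 4). Replicate 4 alone, which is slide 2, gave 0.18 and -0.076 for Adamts1 probes A_52_P489295 and A_52_P213932, -0.35 for Adamts2 A_52_P184042, and -0.45 and -0.40 for Adamts5 A_51_P233534 and A_52_P70231. With normexp and loess the median was 0.042 for the other ADAMTS genes, 0.098 for activators and inhibitors, 0.22 for the proteoglycan matrix and 0.37 for procollagens. The ADAMTS-like median was 0.17 with normexp and loess, 0.27 on slide 2 alone and 0.33 to 0.45 with a replicate left out. Left-out replicates gave medians of 0.14 to 0.30 for the proteoglycan matrix, 0.049 to 0.25 for the other ADAMTS genes, 0.053 to 0.17 for activators and inhibitors and 0.33 to 0.45 for procollagens. Slide 2 alone gave 0.84 for the other ADAMTS genes and 0.41 for activators and inhibitors. The causes were not tested. Limits are the single dye orientation, 4 arrays of which a pair resembles each other, and 1 probe for Adamts4 and Adamts15. Some Adamts12 and Adamts2 probes were also faint. Those tested were well above background in both channels on 4 arrays, unlike the untested Adamts12 probes.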
